A study of Mus musculus with 4 samples.

Results

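The 10 genes described here are the cathepsins Ctss, Ctsb, Ctsd, Ctsl, Ctsh, Ctsz, Ctsc and Ctsa, the related protease legumain (Lgmn) and the protease inhibitor cystatin C (Cst3). They were chosen by symbol from the 55385 genes of the matrix, and all 10 passed the filter on low counts. The samples came from the spleen of WT C57BL6 mice at steady state, with no treatment and no other genotype. CITE-seq, which reads messenger RNA and antibody-bound barcodes from the same single cells, was done on dendritic cells (DCs) enriched from 2 mice, sorted into XCR1-positive cDC1 and CD172a-positive cDC2 and mixed with random live cells. The labels give 2 replicates, here called libraries 1 and 2, and do not state whether each came from a mouse of its own. The spread behind the p-values is thus that of 2 libraries and may be technical, and the comparisons are between cell classes within them.

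Cathepsins and legumain are proteases of endosomes and lysosomes, the acid compartments in which dendritic cells cut proteins into peptides and remove the invariant chain from MHC class II molecules. Most are made as inactive precursors that mature at acid pH, and legumain, which cuts after asparagine, trims the precursors of several of the others. Cystatins bind and block the cysteine cathepsins. Type 1 conventional DCs (cDC1) are known for showing CD8 T cells antigens taken from dying cells, type 2 (cDC2) for presenting to CD4 T cells, and both switch on Ccr7 and Fscn1 when they mature and leave the tissue.

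Cells were assigned to classes by gates, not by clustering. A cDC1 had at least 2 XCR1 antibody UMIs and at least 2 times as many as of CD172a, and a cDC2 had at least 3 CD172a UMIs and at least 2 times as many as of XCR1. UMIs are counted molecules. Mature cells had at least 2 UMIs each of Ccr7 and Fscn1, and immature cells had neither. Cells with at least 2 UMIs of Ccr7 and none of Fscn1 are called Ccr7-only, and cycling cDC1 had at least 5 of 12 cell cycle genes. In libraries 1 and 2 this gave 133 and 172 mature cDC1, 106 and 124 mature cDC2, 599 and 775 cycling cDC1, 93 and 90 plasmacytoid DCs (pDCs), 75 and 94 monocytes, 130 and 167 B cells, 3660 and 5789 immature cDC1, and 965 and 969 immature cDC2. The sort set how many cells of each kind were loaded, so class sizes say nothing of their frequency in the spleen. Of the 28142 cells kept, 17190 fell in the 12 classes described. The gate UMIs for mature cells were also found in 319 kept cells with too little of either antibody.

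Il4i1 and Clec9a, which the gates did not use, followed the class names. Il4i1, a mature DC gene, stood at 1356 and 1406 CPM (the share of RNA UMIs, scaled to 1000000) in mature cDC1, against 3.05 and 2.65 CPM in immature cDC1. Clec9a, a cDC1 gene, stood at 321 and 358 CPM in immature cDC1, against 39.3 and 55.7 CPM in immature cDC2. In mature cDC1 it stood at 72.5 and 99.7 CPM, against 12.4 and 32.9 CPM in mature cDC2. The median cell had 5367 RNA UMIs in mature cDC1, 3160.5 in mature cDC2, 7810 in immature cDC1 and 3690.5 in immature cDC2. The libraries held 99617992 and 129565040 RNA UMIs, and 61 of the 31790 barcodes had a sequence found in both.

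The short DNA barcodes of the 2 gate antibodies, which decide whether a cell counts as cDC1 or cDC2 here, were read from the deposited feature list. For the genes themselves, the promoter windows of RefSeq (GRCm38.p6, 250 bases before to 50 after each start the table gives) were searched for CACGTG, the E-box that TFEB and its relatives, regulators of lysosomal genes, are known to bind. The motif reads the same on both strands. The table has 10 windows for 8 of the members, with 2 each for Lgmn and Ctsa. The motif lay in a window of 4 of the 8 (Lgmn, Ctsd, Ctsl and Ctsa), counted per gene, and in 7.15% of all 32851 windows, counted per window. For Lgmn, Ctsa and Ctsl the start that the window belongs to lies inside the span of the gene given further on, so these are windows of starts within the gene. The longer form CACGTGAC lay in 3 of the 8 (Lgmn, Ctsd and Ctsa) and in 2.25% of all windows on either strand, and TCACGTGA in 2 (Ctsd and Ctsa) and in 0.974%. The ETS-IRF composite element, also searched on both strands, lay in none of the 8 and in 2.72% of all windows. These matches are a description of the letters and not of binding. The stretches are shown 5′ to 3′ on the strand of the gene, with the E-box in capitals. Ctsd has another E-box at -245 from its start, also within CACGTGAC, which is not shown. The one shown is at -98.
XCR1 antibody barcode: tccattacccacgtt
CD172a antibody barcode: gattcccttgtagca
Lgmn, chr12:102439109-102439168, minus strand: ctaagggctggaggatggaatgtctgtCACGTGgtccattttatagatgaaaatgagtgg
Ctsd, chr7:142387893-142387952, minus strand: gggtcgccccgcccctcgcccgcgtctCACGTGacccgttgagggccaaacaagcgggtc
Ctsl, chr13:64370724-64370770, minus strand: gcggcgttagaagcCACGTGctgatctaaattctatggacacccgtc
Ctsa, chr2:164833734-164833793, plus strand: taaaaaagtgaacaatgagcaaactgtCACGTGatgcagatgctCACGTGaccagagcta

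All 10 genes are protein-coding. In GRCm38.p6, the build that RefSeq's table shares with the mm10 build of the files, Lgmn lies at chr12:102394082-102439728, Ctss at chr3:95526786-95556405, Ctsb at chr14:63122462-63145923, Ctsd at chr7:142375910-142387827 and Ctsl at chr13:64361890-64370772. Ctsh lies at chr9:90054267-90076095, Ctsz at chr2:174427494-174439039, Ctsc at chr7:88278024-88315861, Ctsa at chr2:164832872-164841032 and Cst3 at chr2:148871722-148875512. By RefSeq, 4 of them overlap another gene: Ctss overlaps Hmgb1-ps5 by 628 bases, Ctsb overlaps Fdft1 by 774, Ctsz overlaps Nelfcd by 12, and Ctsa overlaps Neurl2 by 725 and Pltp by 1515. Reads in such stretches may have been dropped or split in the authors' counting, so the levels of these 4 are uncertain as levels. UMIs come from the 3′ end and are not scaled to length, so levels are compared between classes and not between genes.

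**Figure D1:**
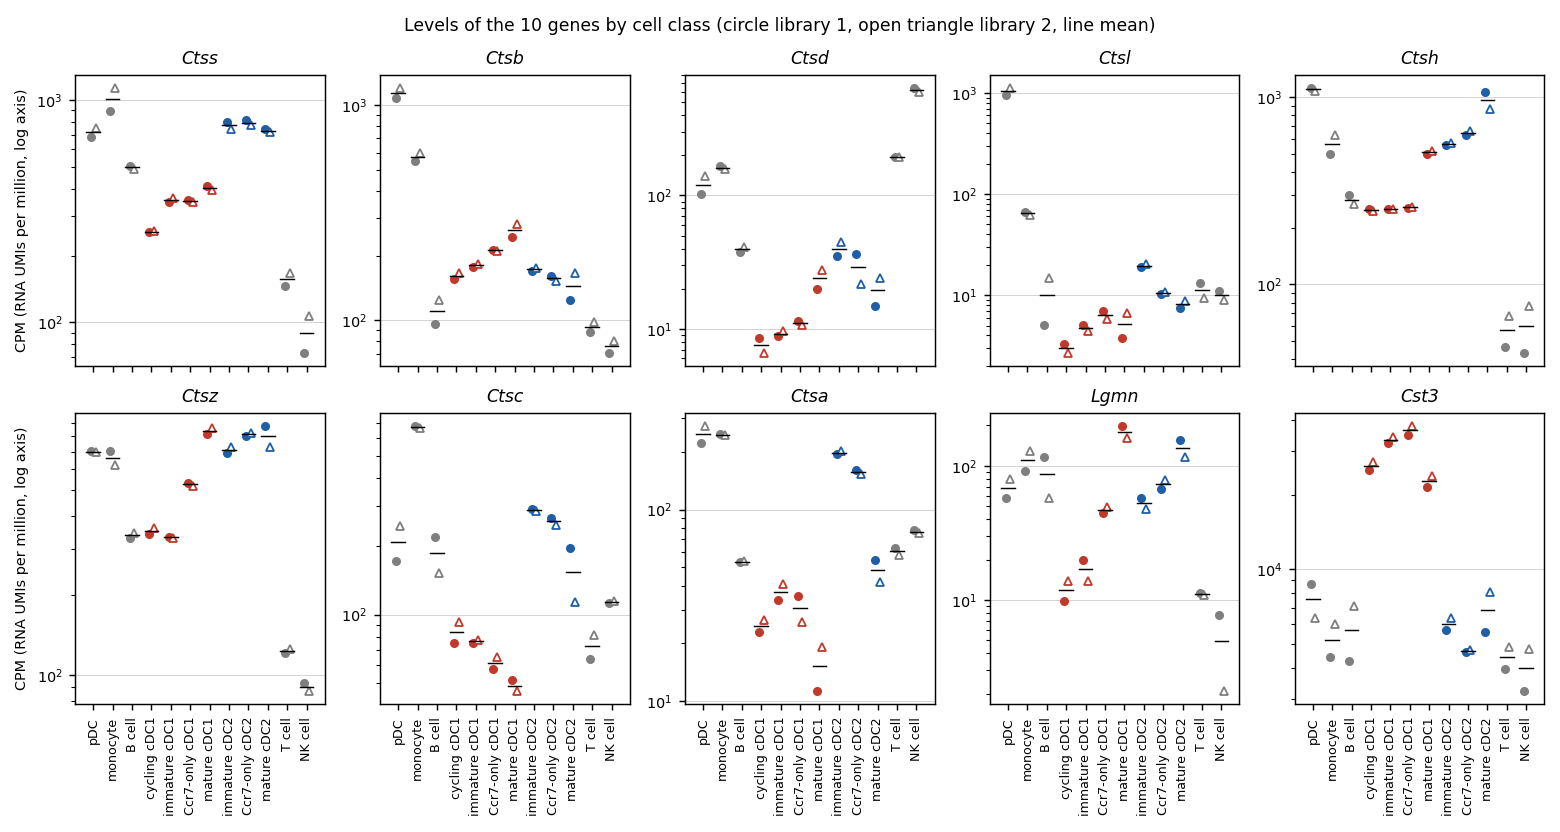
Levels of the 10 genes in 12 cell classes, in CPM on log axes that differ between genes. Circles are library 1, open triangles library 2 and lines their mean; cDC1 classes are red, cDC2 classes blue and other cells grey. Ctsl stands out in pDC (957 and 1126 CPM), Ctsd in NK cells (642 and 593 CPM) and Cst3 in the cDC1 classes. Lgmn has its highest mean of the 12 classes in mature cDC1 (198 and 161 CPM), with mature cDC2 next (156 and 116 CPM).

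Maturation of cDC1 came with a larger share of RNA for legumain and several cathepsins and a smaller share for 1. These are shares and not amounts per cell, and the median mature cDC1 had fewer RNA UMIs (5367, against 7810 in immature cDC1). Of the 10 genes, 6 rose in mature over immature cDC1 (Lgmn, Ctsd, Ctsz, Ctsh, Ctsb and Ctss), 1 fell (Ctsa), and 3 did not pass the test (Cst3, Ctsc and Ctsl). The test was edgeR's quasi-likelihood test on UMIs summed per class and library, with adjusted p below 0.05 counted as a call. Over all 10474 genes tested, 48.1% were called, 25.5% as higher and 22.6% as lower, so a call by itself was common in this comparison. Of all calls 53% were higher, but 40.2% when counts were scaled by library totals alone, which moved the median of all genes to -0.31. The median log2 fold change of the 10 genes was 0.61, against -0.07 over all genes.

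Lgmn, the asparagine-specific protease, had 198 and 161 CPM in mature cDC1, against 19.9 and 13.9 CPM in immature cDC1. The 2 classes were far apart in both libraries, and the Ccr7-only cDC1 lay between them at 44.5 and 49.5 CPM. The mean was 179 ± 25.8 CPM in mature cDC1 and 16.9 ± 4.18 CPM in immature cDC1 (SD, n = 2 libraries each), a ratio of 10.6. The log2 fold change was 3.66 (SE 0.17, edgeR adjusted p = 9.37e-21). With every cell thinned to 3000 UMIs, 42.3% (exact binomial 95% interval 33.4 to 51.5) and 31.5% (24.2 to 39.7) of mature cDC1 had a UMI of Lgmn, against 5.69% (4.94 to 6.52) and 4.17% (3.65 to 4.74) of immature cDC1. Without thinning the shares were 64.7% and 51.7% in mature cDC1, against 14.1% and 9.74% in immature cDC1. In T cells, which are not known for Lgmn, the thinned shares were 3.11% (1.71 to 5.16) and 2.91% (1.40 to 5.28), intervals that overlap those of immature cDC1, and in NK cells 2.47% and 0 of 132 cells (up to 2.76%). What part free RNA has in these shares was not tested.

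Ctsd, the main aspartic protease of lysosomes, had 20.01 and 27.8 CPM in mature cDC1, against 8.82 and 9.58 CPM in immature cDC1. The classes did not overlap, but the mature values rest on 16 and 29 UMIs. The log2 fold change was 1.64 (SE 0.28, edgeR adjusted p = 6.03e-06). T cells had 196 and 195 CPM and NK cells 642 and 593 CPM, all above every DC class, and what part free RNA of those cells has in the DC values was not tested.

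Ctsb, a cysteine protease with both endopeptidase and dipeptidase action, had 244 and 281 CPM in mature cDC1, against 177 and 183 CPM in immature cDC1. Both mature values lay above both immature ones, at a log2 fold change of 0.79 (SE 0.11, edgeR adjusted p = 1.75e-07). Ctss, which in DCs and B cells cleaves the last fragment of the invariant chain, had 412 and 394 CPM in mature cDC1, against 350 and 365 CPM in immature cDC1. Its change was small, 0.41 on the log2 scale (SE 0.14, edgeR adjusted p = 0.0123). The Ctss call was lost under 7 of the 16 alternatives, among them removal of library 1 from mature cDC1 (0.22, adjusted p = 0.355) and scaling by library totals alone (0.17, adjusted p = 0.307). Ctsl, which removes the invariant chain in the mouse thymus, had 3 and 7 UMIs in mature cDC1 (3.75 and 6.71 CPM), against 5.06 and 4.45 CPM in immature cDC1. These values overlap and lie under the T cell level of 13.1 and 9.29 CPM, so no change of Ctsl was detectable at this depth.

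Among the exopeptidases, Ctsz and Ctsh rose together in mature cDC1. Ctsz, a carboxypeptidase also called cathepsin X, had 821 and 864 CPM in mature cDC1, against 334 and 329 CPM in immature cDC1. Ccr7-only cDC1 again lay between, at 534 and 520 CPM, and the log2 fold change between mature and immature was 1.59 (SE 0.097, edgeR adjusted p = 8.95e-17). After thinning, 89.4% (82.6 to 94.3) and 87.2% (80.8 to 92.1) of mature cDC1 had a UMI of Ctsz, against 59.3% (57.6 to 61.0) and 60.5% (59.2 to 61.8) of immature cDC1 and 21.6% and 22.4% of T cells. Ctsh, an aminopeptidase, had 500.3 and 517 CPM in mature cDC1, against 254 and 253 CPM in immature cDC1. The ratio of mature to immature was 1.97 and 2.04 in the 2 libraries, with a log2 fold change of 1.24 (SE 0.13, edgeR adjusted p = 2.58e-10). Ccr7-only cDC1, at 256 and 259 CPM, stood at the immature level for Ctsh, unlike for Ctsz and Lgmn.

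The other exopeptidases were lower or uncalled. Ctsa, a serine carboxypeptidase that also stabilises lysosomal neuraminidase and beta-galactosidase, had 11.3 and 19.2 CPM in mature cDC1, against 33.8 and 40.7 CPM in immature cDC1. It fell by 1.01 on the log2 scale (SE 0.26, edgeR adjusted p = 0.00141). The mature values rest on 9 and 20 UMIs and lie under the T cell level of 63.1 and 58.0 CPM, and in cells thinned to equal depth the change was -0.53 with adjusted p = 0.199. Ctsc, the dipeptidyl peptidase that activates granzymes and neutrophil serine proteases, had 51.3 and 46.0 CPM in mature cDC1, against 74.7 and 77.7 CPM in immature cDC1, where T cells had 63.7 and 81.4 CPM. Its log2 fold change of -0.42 did not pass (edgeR adjusted p = 0.144), but it passed under 3 alternatives, at -0.66 with library totals alone (adjusted p = 0.0176), -0.69 with no filter (0.00108) and -0.53 with only the conventional DC classes in the fit (0.00778).

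Cst3, the secreted inhibitor of cysteine cathepsins, had 21420 and 23816 CPM in mature cDC1, against 32217 and 34057 CPM in immature cDC1, and 34965 and 37824 CPM in Ccr7-only cDC1. The mature values were the lowest of the cDC1 classes in both libraries and did not overlap the immature ones. The change after TMM scaling, which allows for shifts of the whole profile, was -0.31 on the log2 scale (SE 0.21) and did not pass (edgeR adjusted p = 0.231). It did pass under 4 alternatives, at -0.53 in cells thinned to equal depth (adjusted p = 0.00502) and at -0.56 when scaled by library totals alone (adjusted p = 0.0232). The 10 genes together took 2.37% and 2.61% of the RNA UMIs of mature cDC1, against 3.35% and 3.53% in immature cDC1.

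In cDC2, maturation came with changes in 5 of the genes. Lgmn, Ctsh and Ctsz rose, Ctsa and Ctsc fell, and 5 did not pass. Over all genes 24.2% were called in mature over immature cDC2, 13.4% as higher and 10.8% as lower. Of these calls 55.2% were higher, and 44.4% with library totals alone (median of all genes -0.20). The median log2 fold change of the 10 genes was -0.02, against -0.07 over all genes.

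Lgmn had 156 and 116 CPM in mature cDC2, against 57.2 and 48.0 CPM in immature cDC2. The classes were apart in both libraries, with Ccr7-only cDC2 between them at 67.1 and 78.7 CPM. The log2 fold change was 1.51 (SE 0.24, edgeR adjusted p = 4.1e-06). After thinning, 35.6% (24.7 to 47.7) and 23.4% (13.8 to 35.7) of mature cDC2 had a UMI, against 14.9% (12.4 to 17.7) and 11.4% (9.16 to 13.9) of immature cDC2, and in library 2 these intervals overlap slightly. Ctsh had 1063 and 868 CPM in mature cDC2, against 557 and 567 CPM in immature cDC2. Its log2 fold change was 0.92 (SE 0.13, edgeR adjusted p = 8.5e-07).

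Ctsz had 875 and 730 CPM in mature cDC2, against 695 and 730 CPM in immature cDC2. Library 2 showed no difference, and although the log2 fold change of 0.31 passed (SE 0.10, edgeR adjusted p = 0.0267), the call was lost under 11 of the 16 alternatives, with a value of 0.11 (adjusted p = 0.7) when library 1 was left out of mature cDC2. Ctsa had 54.5 and 41.6 CPM in mature cDC2, against 196 and 202 CPM in immature cDC2. This was the largest of the called drops in maturation, by 1.92 on the log2 scale (SE 0.21, edgeR adjusted p = 3.02e-09), and mature cDC2 stood near the T cell level of 63.1 and 58.0 CPM. After thinning, 17.8% (9.84 to 28.5) and 12.5% (5.55 to 23.2) of mature cDC2 had a UMI of Ctsa, against 44.8% (41.1 to 48.5) and 46.4% (42.7 to 50.1) of immature cDC2 and 19.1% and 16.0% of T cells.

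Ctsc had 196 and 114 CPM in mature cDC2, against 292 and 287 CPM in immature cDC2. It fell by 0.78 on the log2 scale (SE 0.21, edgeR adjusted p = 0.00361), a call that was lost without library 2 of mature cDC2 (-0.41, adjusted p = 0.299). Ctsd had 14.9 and 24.1 CPM in mature cDC2 from 6 and 11 UMIs, against 34.9 and 45.1 CPM in immature cDC2. Its log2 fold change of -0.88 did not pass (SE 0.35, edgeR adjusted p = 0.0668), but it was called lower under 5 of the 16 alternatives, with values from -1.88 to -0.42 over all of them. Ctsb had 124 and 167 CPM in mature cDC2 against 170 and 174 CPM in immature cDC2, Ctss 741 and 719 CPM against 802 and 740 CPM, and Cst3 5564 and 8115 CPM against 5665 and 6328 CPM. Ctsl had 7.43 and 8.77 CPM in mature cDC2, from 3 and 4 UMIs, against 18.9 and 20.1 CPM in immature cDC2 (-1.12, edgeR adjusted p = 0.0963). Ctsb, Ctss and Cst3 did not pass either, with log2 fold changes of -0.10, 0.06 and 0.31 (edgeR adjusted p = 0.714, 0.841 and 0.335).

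**Figure D2:**
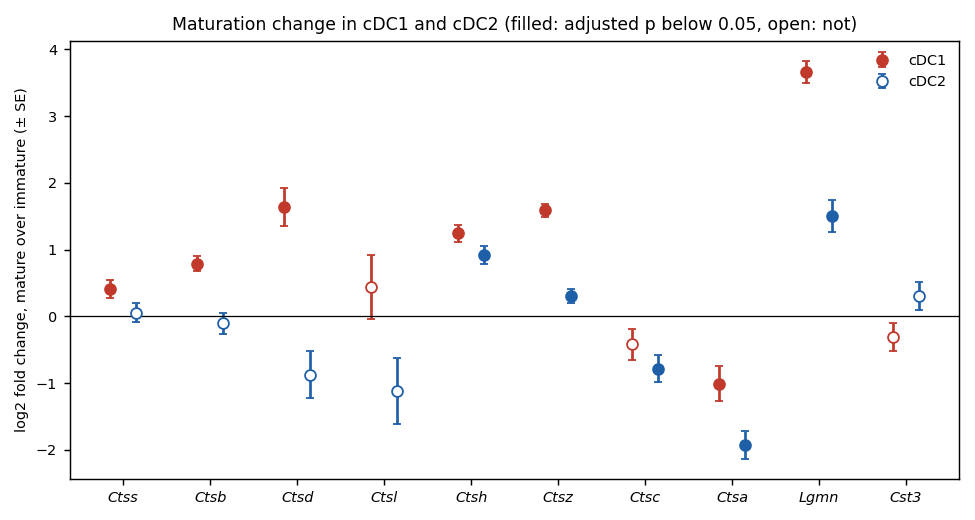
Log2 fold change of each gene, mature over immature, in cDC1 (red) and cDC2 (blue), with bars of 1 standard error from the edgeR fit. Filled points passed adjusted p below 0.05. Lgmn stands highest in both lineages (3.66 in cDC1, 1.51 in cDC2), Ctsa is below 0 in both (-1.01 and -1.92), and the points for Ctsd lie on opposite sides of 0 (1.64 and -0.88).

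Whether the change with maturation differed between the lineages was tested as an interaction, the change in cDC1 minus the change in cDC2. It was called for 4 of the 10 genes, all in the direction of cDC1, where 9.7% of all genes were called, 7.29% in the direction of cDC1 and 2.41% in that of cDC2. Of these calls 75.2% were in the direction of cDC1, and 63% with library totals alone. The difference was 2.52 for Ctsd (SE 0.43, edgeR adjusted p = 5.28e-05) and 2.16 for Lgmn (SE 0.25, edgeR adjusted p = 3.09e-08). It was 1.28 for Ctsz (SE 0.14, edgeR adjusted p = 1.3e-08) and 0.89 for Ctsb (SE 0.19, edgeR adjusted p = 0.00096). For Ctsh, which rose in both lineages, the difference was 0.33 (edgeR adjusted p = 0.326), and for Ctsa, which fell in both, it was 0.91 (edgeR adjusted p = 0.145). The 4 calls held under all 20 alternatives.

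The immature classes of the 2 lineages also differed. Of the 10 genes, 8 were lower in immature cDC1 than in immature cDC2 and 1, Cst3, was higher, where 47% of all genes were called, 20% as higher and 26.9% as lower. Cst3 had 32217 and 34057 CPM in immature cDC1, against 5665 and 6328 CPM in immature cDC2, a log2 fold change of 2.55 (SE 0.22, edgeR adjusted p = 2.07e-12). Ctsa had 33.8 and 40.7 CPM in immature cDC1, against 196 and 202 CPM in immature cDC2, and Ctsc had 74.7 and 77.7 CPM against 292 and 287 CPM. Both differences were large, -2.34 for Ctsa (SE 0.11, edgeR adjusted p = 8.17e-21) and -1.85 for Ctsc (SE 0.14, edgeR adjusted p = 1.73e-14). Ctsd (-2.03), Ctsl (-1.96), Lgmn (-1.58), Ctsh (-1.07), Ctss (-1.03) and Ctsz (-1.02) were also lower in immature cDC1, with edgeR adjusted p of at most 4.57e-09. Ctsb, at 177 and 183 CPM in immature cDC1 against 170 and 174 CPM in immature cDC2, did not pass (0.14, edgeR adjusted p = 0.235), but was called higher in cDC1 under 4 alternatives.

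The mature classes were compared in the same way. In mature cDC1 over mature cDC2, 2 of the 10 genes were higher (Cst3 and Ctsb) and 4 lower (Ctsc, Ctsa, Ctsh and Ctss), where 14.1% of all genes were called, 7.63% as higher and 6.43% as lower. Of these calls 54.3% were higher, and 36.8% with library totals alone (median of all genes -0.11). Cst3 had a log2 fold change of 1.93 (SE 0.22, edgeR adjusted p = 1.58e-08) and Ctsb, at 244 and 281 CPM in mature cDC1 against 124 and 167 CPM in mature cDC2, of 1.03 (SE 0.16, edgeR adjusted p = 6.45e-06). Ctsc differed by -1.48, Ctsa by -1.42, Ctsh by -0.74 and Ctss by -0.68 (edgeR adjusted p of 0.000258, 0.0048, 0.000199 and 0.00164). Ctsz, which was 1.02 lower on the log2 scale in immature cDC1 than in immature cDC2, had 821 and 864 CPM in mature cDC1 and 875 and 730 CPM in mature cDC2, values that overlap (0.26, edgeR adjusted p = 0.119). Lgmn, at 198 and 161 CPM in mature cDC1 against 156 and 116 CPM in mature cDC2, did not pass (0.58, edgeR adjusted p = 0.0705). Only 3 of the 10 genes were called with a maturity gate of 5 UMIs each, and 3 without library 1 of mature cDC2.

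The levels were also followed over 5 bins of Ccr7 plus Fscn1 UMIs per 10000 RNA UMIs in all non-cycling cDC1 and cDC2, which order cells by marker level and not by time. The same markers chose the mature class, so these are descriptions. In cDC1, mean Lgmn was 16.9 CPM in cells with none, 19.2 CPM in cells up to 5, 57.8 CPM up to 20, 141 CPM up to 50 and 196 CPM above 50. The level was higher at each bin in both libraries. Ctsz stood at 332, 363, 612, 719.5 and 923 CPM over the same bins. In the mean and in library 1 its largest step was between the second and the third bin. In library 2 it was between the fourth and the fifth, from 691 to 1000 CPM. Ctsh stood at 254, 253, 307, 406 and 493 CPM, with the difference spread over the upper 3 bins. Cst3 stood at 33137, 33265, 37054, 31025 and 21850 CPM, and was highest in the middle bin in both libraries and lowest in the top bin. In cDC2, Ctsa stood at 199, 196, 163, 118 and 39.4 CPM, with a mean lower at each bin, and Ctsh at 562, 585, 697, 834 and 1032 CPM. Lgmn in cDC2 stood at 52.6, 57.5, 70.4, 119 and 151 CPM.

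**Figure D3:**
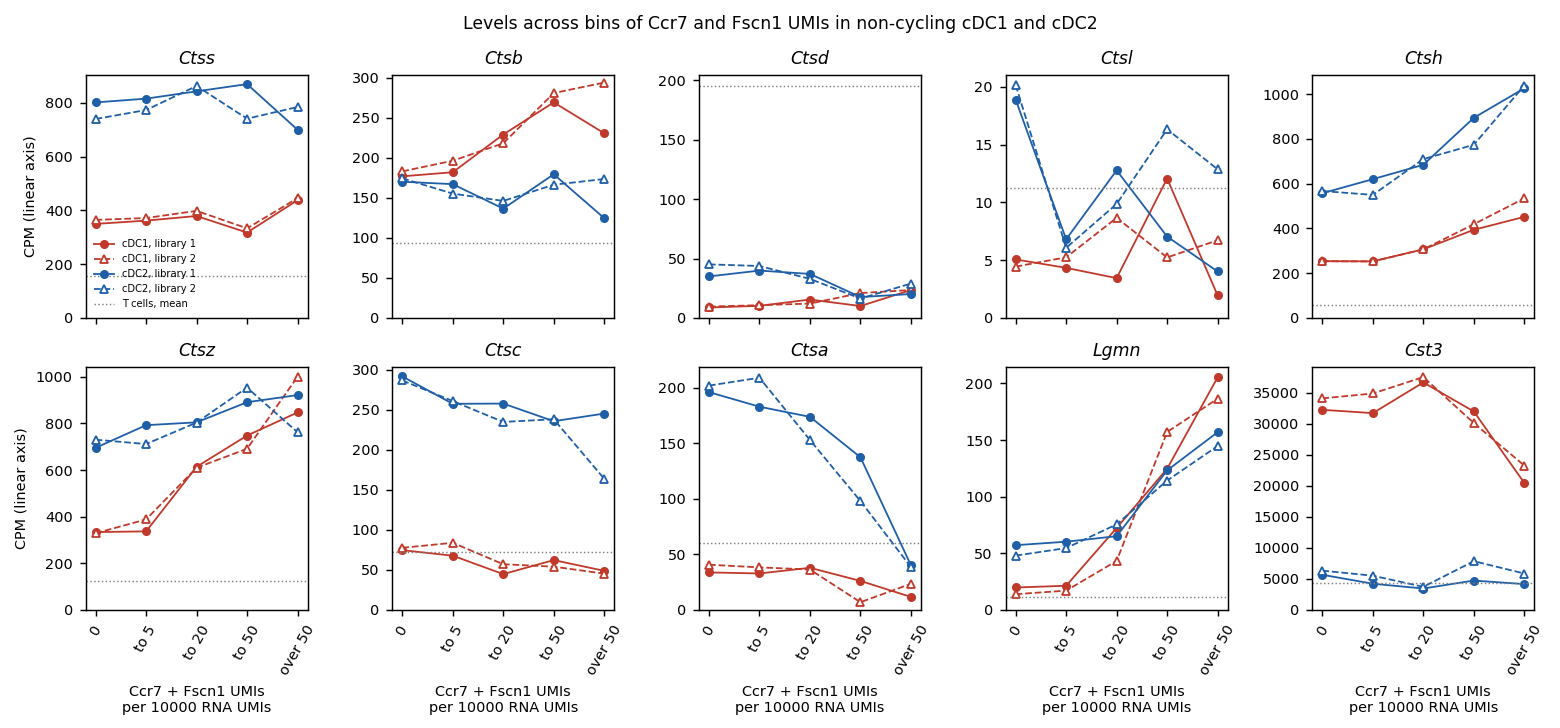
Levels in CPM (linear axes that start at 0 and differ between genes) over 5 bins of Ccr7 plus Fscn1 UMIs per 10000 RNA UMIs in cDC1 (red) and cDC2 (blue), with library 1 as filled circles on solid lines and library 2 as open triangles on dashed lines; the dotted grey line is the T cell mean. Lgmn reaches 196 CPM in the top cDC1 bin, Ctsa is at 39.4 CPM in the top cDC2 bin, and the cDC2 means of Cst3 lie between 3590 and 6293 CPM, around the T cell mean of 4404 CPM. The median thinned cell had 7 and 9 Cst3 UMIs in immature cDC2, against 3 and 3 in T cells.

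Cycling cDC1, which had the most RNA per cell of the DC classes (median 12580 UMIs), were lower for several of the genes. Of the 10, 5 were lower in cycling than in immature non-cycling cDC1 and the other 5 did not pass, where 43.8% of all genes were called, 22% as higher and 21.9% as lower. Of these calls 50.1% were higher, and 62.8% with library totals alone. Ctss had 254 and 257 CPM in cycling cDC1, against 350 and 365 CPM in immature cDC1, a log2 fold change of -0.57 (SE 0.12, edgeR adjusted p = 0.000235). Ctsa had 23.1 and 26.3 CPM in cycling cDC1, against 33.8 and 40.7 CPM in immature cDC1 (-0.67, SE 0.12, edgeR adjusted p = 1.02e-05). Ctsl (-0.75), Lgmn (-0.54) and Ctsb (-0.25) were the others, with edgeR adjusted p of 0.00462, 0.00436 and 0.0289. The Lgmn call was lost under 4 of the 16 alternatives, and the Ctsl call in thinned cells (adjusted p = 0.328) and without library 2 of the cycling cells (adjusted p = 0.0734). Ctsz, at 342 and 359.9 CPM in cycling cDC1 against 334 and 329 CPM in immature cDC1, did not pass (edgeR adjusted p = 0.994), and neither did Cst3 at 25183 and 26984 CPM in cycling cDC1 against 32217 and 34057 CPM in immature cDC1 (-0.43, edgeR adjusted p = 0.0962). Cst3 was called lower under 7 of the 16 alternatives and Ctsd under 9. With only the conventional DC classes in the fit both were called, as was Ctsh, which made 8.

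Plasmacytoid DCs, which make type I interferon, differed from immature cDC1 in these genes. Beside immature cDC2, their values overlapped for Ctss and Ctsz and not for the other genes. Ctss had 683 and 748 CPM in pDC, against 802 and 740 CPM in immature cDC2. Ctsz had 702 and 696 CPM in pDC, against 695 and 730 CPM in immature cDC2. Compared with immature cDC1, 9 of the 10 genes were higher in pDC and Cst3 was lower, where 29.6% of all genes were called, 17.2% as higher and 12.4% as lower. Of these calls 58.2% were higher, and 78.3% with library totals alone (median of all genes 0.33). The median log2 fold change of the 10 was 1.78, against 0.05 over all genes. Ctsl had 957 and 1126 CPM in pDC, against 5.06 and 4.45 CPM in immature cDC1. No other class came near this level, the next being monocytes at 66.8 and 62.3 CPM, and the log2 fold change was 7.49 (SE 0.13, edgeR adjusted p = 6.03e-33). After thinning, 74.7% (64.3 to 83.4) and 82.3% (72.1 to 89.96) of pDC had a UMI of Ctsl, against 1.44% (1.06 to 1.90) and 1.12% (0.857 to 1.44) of immature cDC1 and 3.33% and 2.33% of T cells. Ctsb had 1082 and 1200 CPM in pDC, against 177 and 183 CPM in immature cDC1 (2.38, SE 0.10, edgeR adjusted p = 6.27e-21). Ctsh had 1123 and 1078 CPM in pDC, the highest of the classes, against 254 and 253 CPM in immature cDC1 (1.84, SE 0.13, edgeR adjusted p = 2.18e-14). Ctsd (3.40), Ctsa (2.44), Lgmn (1.72), Ctsc (1.15), Ctsz (0.80) and Ctss (0.72) completed the higher genes, with edgeR adjusted p of at most 8.14e-05, and Cst3 was lower by -2.38 (edgeR adjusted p = 3.74e-11). All 10 calls held under all 16 alternatives. This comparison and those of mature cDC1, cycling cDC1 and B cells share the same immature cDC1 sums.

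The monocyte gate held more than monocytes in the usual sense. Of its 169 cells, 72 had at least 3 Ly6c2 UMIs, whether or not they had Ace or Cd300e. Another 89 had Ace or Cd300e, markers of patrolling monocytes, and fewer than 3 Ly6c2 UMIs. Of the 72, 45 had a UMI of the granule protein genes Elane, Prtn3, Mpo or Ctsg, which are known from granulocyte and monocyte precursors, with Elane at 1361 and 702 CPM. Of the 89, 1 did. Over the whole gate, 5 of the 10 genes were higher than in immature cDC2 and the other 5 did not pass, where 28.3% of all genes were called, 15.8% as higher and 12.6% as lower. Ctsb had 547 and 595 CPM in monocytes, against 170 and 174 CPM in immature cDC2 (1.62, SE 0.11, edgeR adjusted p = 3.59e-14). Ctsc had 677 and 662 CPM in monocytes, the highest of the classes, against 292 and 287 CPM in immature cDC2 (1.11, SE 0.15, edgeR adjusted p = 2.39e-07). Ctsd (1.92), Ctsl (1.62) and Lgmn (0.93) were the others, with edgeR adjusted p of 5.85e-11, 1.17e-06 and 0.00205. The Lgmn call was lost without library 2 of the monocytes (0.51, adjusted p = 0.23).

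The 2 kinds of cell in the monocyte gate had different levels. Ctss had 635 and 883 CPM in the Ly6c2-high cells, against 1481 and 1448 CPM in the Ace or Cd300e cells, and Lgmn 20.2 and 73.3 CPM against 259 and 212 CPM. Ctsc stood the other way round, at 848 and 845 CPM in the Ly6c2-high cells against 291 and 434 CPM in the Ace or Cd300e cells. The values of the 2 kinds did not overlap for these 3 genes, and no test was made because the split was chosen after the values were seen. Of the 46 cells that had a granule gene UMI, 45 were Ly6c2-high. Leaving these 46 out was also chosen after the data were seen, so the outcome is a description. It gave 7 of the 10 genes as higher, now with Ctss and Ctsa. Over all genes 1214 were called, against 2967 with the whole gate. The log2 fold changes over immature cDC2 were 0.87 for Ctss, 0.55 for Ctsa, 1.84 for Lgmn and 0.62 for Ctsc.

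In B cells, 3 of the 10 genes were higher than in immature cDC1 (Lgmn, Ctsd and Ctsc) and 2 lower (Cst3 and Ctsb), where 32.7% of all genes were called, 18.5% as higher and 14.2% as lower. Lgmn had 116 and 57.6 CPM in B cells, against 19.9 and 13.9 CPM in immature cDC1 (2.20, SE 0.29, edgeR adjusted p = 9.94e-08), with the 2 B cell libraries far apart on 46 and 31 UMIs. Ctsc had 220 and 152 CPM in B cells, against 74.7 and 77.7 CPM in immature cDC1 (1.14, SE 0.20, edgeR adjusted p = 2.63e-05). Ctsd had 38.0 and 40.9 CPM in B cells, from 15 and 22 UMIs, against 8.82 and 9.58 CPM in immature cDC1 (1.98, SE 0.31, edgeR adjusted p = 3.33e-06). Ctsb differed by -0.81 (edgeR adjusted p = 6.85e-05). Ctss, the class II protease of B cells and DCs, had 506 and 493 CPM in B cells against 350 and 365 CPM in immature cDC1, and did not pass (0.36, edgeR adjusted p = 0.0581).

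**Figure D4:**
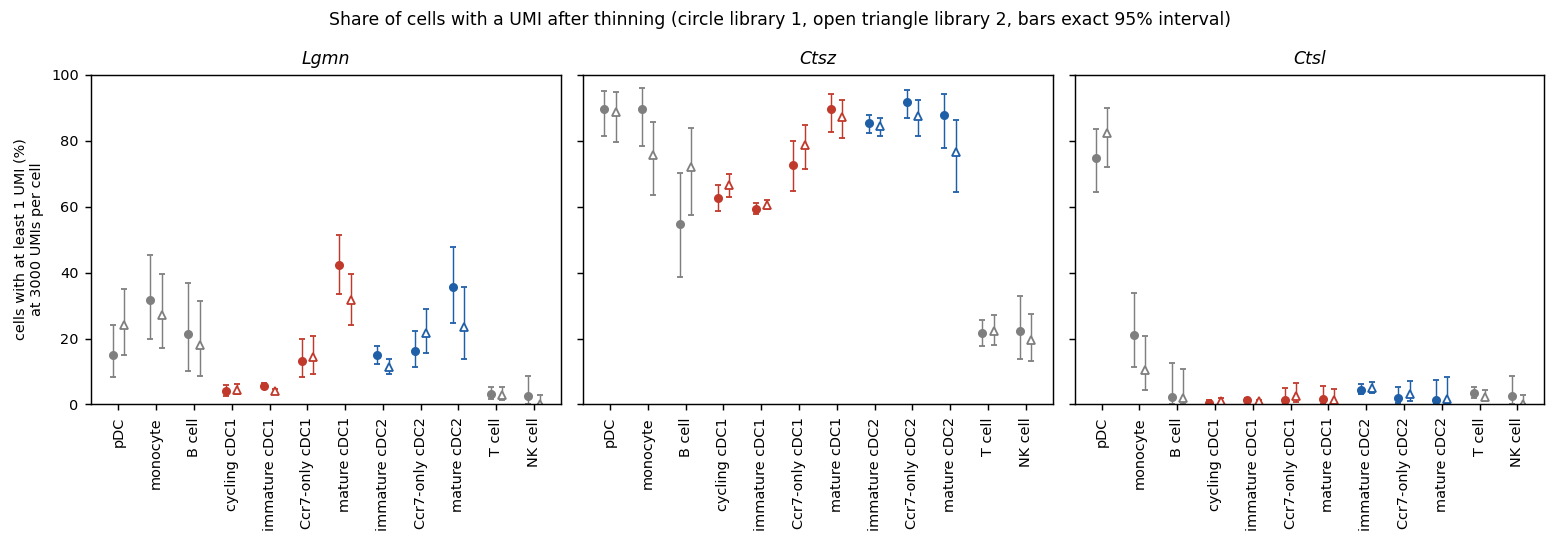
Share of cells with at least 1 UMI of Lgmn, Ctsz and Ctsl after every cell was thinned to 3000 RNA UMIs, by class and library (circles library 1, open triangles library 2), with exact 95% binomial intervals that cover counting error only. Lgmn is found in 42.3% and 31.5% of mature cDC1, Ctsz in 89.4% and 87.2%, and Ctsl in 74.7% and 82.3% of pDC but in at most 4.86% of cells in any cDC class.

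Cst3 was counted far outside the DCs. It had 3958 and 4851 CPM in T cells, 3217 and 4753 CPM in NK cells, 4244 and 7109 CPM in B cells and 4415 and 5978 CPM in monocytes, and after thinning 94.0% and 95.9% of T cells had a UMI of it. Ordered by mean CPM, neighbours from pDC through mature and immature cDC2 down to NK cells all overlapped. Medians per thinned cell lay further apart than these means. They were 3 and 3 UMIs in T cells, 3 and 4 in NK cells and 4 and 4.5 in B cells. In immature cDC2 they were 7 and 9, in pDC 7 and 7, and in monocytes 10 and 13. Xcr1, a cDC1 gene, was used as a scale, since cDC1 made up most of the sorted cells. There were 61.9 and 56.9 UMIs of Cst3 per UMI of Xcr1 in immature cDC1. The ratio was 64.0 and 52.6 in T cells, 60.5 and 60.0 in NK cells and 69.9 and 60.7 in B cells, all near that of immature cDC1. It was higher in immature cDC2 (87.9 and 94.3), pDC (82.1 and 80.2) and monocytes (167 and 253). In mature cDC1, where Xcr1 itself was at 113 and 141 CPM, it was 190 and 169. In mature cDC2, where Xcr1 was at 9.91 and 85.5 CPM, the ratio was 561 and 94.9, so it differed widely between the libraries. What parts free RNA and the cells' own RNA have in the Cst3 levels outside cDC1, those of T, NK and B cells among them, was not tested. For the other members T cells stood below the cDC2 classes for Ctss (146 and 167 CPM), Ctsz (121 and 126 CPM), Ctsh (46.2 and 67.6 CPM), Ctsb (88.1 and 98.1 CPM) and Lgmn (11.2 and 10.8 CPM).

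Genes of the same compartments were read from lists. Their counts stand beside a share of all genes called of 48.1% in mature cDC1 and 24.2% in mature cDC2, and a list near that share shows nothing of its own. Of 10 genes for MHC class II molecules, their chaperones and their regulator Ciita, 6 fell in mature cDC1 and the other 4 did not pass, with a median log2 fold change of -1.33. Ciita fell by 2.21 (edgeR adjusted p = 8.14e-12), H2-DMb1 by 2.08 and H2-Ob by 2.02 on the log2 scale, the last 2 encoding parts of the peptide exchange and its inhibitor. In mature cDC2, 7 fell and 3 did not pass, with H2-Ob at -1.52, H2-DMa at -1.50 and H2-DMb1 at -1.25. H2-DMa, a chain of the peptide exchanger, had 193 and 282 CPM in mature cDC1 against 1036 and 1110 CPM in immature cDC1, and so stood lower while Lgmn, Ctsz and Ctsh stood higher.

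Of 16 tested subunits of the proton pump that acidifies lysosomes (17 listed), 8 rose and 1 fell in mature cDC1. Calls in either direction were near the share of all genes, 48.1%, while 25.5% of all genes were called higher and 22.6% lower. In mature cDC2, 3 rose and 13 did not pass, where 13.4% of all genes were called higher and 10.8% lower. Atp6v0a1 (2.71), Atp6v1b2 (1.57) and Atp6v0c (1.28) moved most in cDC1, while in cDC2 the calls were Atp6v1b2 (0.97), Atp6v0b (0.45) and Atp6v0e (0.32). The difference between lineages was called for 3 of the 16, where 9.7% of all genes were called. Of 11 genes that sort enzymes to lysosomes, 7 rose and 2 fell in mature cDC1, led by Gga2 (2.69), Nagpa (-2.10) and Gga3 (1.88), and 1 rose in mature cDC2, the mannose 6-phosphate receptor M6pr (0.55).

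Other lysosomal peptidases and relatives moved in both directions. Of 9 tested, 4 rose and 2 fell in mature cDC1, and 2 rose and 3 fell in mature cDC2. Scpep1, a serine carboxypeptidase like Ctsa, had 174 and 206 CPM in mature cDC1, against 23.8 and 26.3 CPM in immature cDC1 (3.17, edgeR adjusted p = 5.72e-23), so it rose where Ctsa fell. Ifi30, the thiol reductase of lysosomes that opens disulfide bonds of antigens, had 2008 and 1861 CPM in mature cDC1, against 397 and 374 CPM in immature cDC1 (2.57, edgeR adjusted p = 3.08e-21). Naaa, a lysosomal amidase and cDC1 marker, had 100.1 and 170 CPM in mature cDC1, against 1110 and 1108 CPM in immature cDC1, a log2 fold change of -2.79. In cDC2 the 3 largest calls were Naaa (-1.38), Scpep1 (1.25) and Napsa (-0.99).

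Of the 8 other cystatins 2 could be tested, and Cstb, a cytosolic inhibitor of cathepsins, rose in both lineages, with 270 and 185 CPM in mature cDC1 against 89.9 and 87.0 CPM in immature cDC1 (1.58, edgeR adjusted p = 1.48e-12), and 131 and 92.1 CPM in mature cDC2 against 65.2 and 75.8 CPM in immature cDC2 (0.79). Of the 6 other cathepsins 4 could be tested, and Ctso (0.83) was the call in mature cDC1. Ctsw, a cathepsin of cytotoxic lymphocytes, had 707 and 655 CPM in NK cells and 243 and 235 CPM in T cells, against at most 2.19 CPM in the conventional DC classes. Of the TFEB family 3 of 4 could be tested; Tfe3 (1.32) and Tfeb (0.79) rose in mature cDC1, and in mature cDC2 all 3 failed to pass.

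In the other comparisons the lists gave these counts. In pDC over immature cDC1, where 29.6% of all genes were called, 9 of the 10 class II genes were lower and 1 higher, and of the proton pump 5 were higher and 3 lower. In monocytes over immature cDC2, where 28.3% were called, all 10 class II genes were lower, and 8 proton pump genes were higher and 1 lower. In cycling over immature non-cycling cDC1, where 43.8% were called, 9 of 16 proton pump genes were lower and 7 did not pass. In B cells over immature cDC1, where 32.7% were called, 7 class II genes were lower and 2 higher, with H2-DMb2 at 2.99. In immature cDC1 over immature cDC2, where 47% were called, 6 of the 9 tested peptidases were lower and 3 higher, Naaa (2.73) and Cpq (2.34) among them.

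The antibodies for 2 lysosomal membrane proteins that reach the cell surface, CD63 and CD107a, gave protein counts beside the RNA. They do not measure the content of lysosomes. CD63 antibody stood at 23.8 and 13.3 UMIs per cell in mature cDC1, against 0.468 and 0.400 in immature cDC1, and at 9.86 and 5.99 in mature cDC2, against 0.282 and 0.253 in immature cDC2. CD107a stood at 7.09 and 5.66 UMIs per cell in mature cDC1, against 1.49 and 1.11 in immature cDC1. In cDC2, CD107a stood at 3.14 and 3.07 in mature cells, against 0.990 and 0.819 in immature ones. Both were higher in the mature classes in each library, and no test was made of them. These are raw UMIs per cell, not scaled and not set against the isotype controls.

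The likeness of the members' patterns was measured as the Pearson correlation of log2(CPM + 10), averaged over the libraries, across the 12 classes, among 4827 genes with at least 50 CPM in some class. The classes share libraries and free RNA, so these are descriptions. Ctsz and Ctsh were among each other's 3 most alike genes (0.95), Ctsz was most like Ifi30 (0.98), and Ctsh and Ctss correlated at 0.91. Lgmn was most like Map2k1 (0.93), with Ifi30 also among the nearest 3 (0.89). Ctsl was most like Smim5 (0.99), Ctsb most like Grn (0.93), and Ctsd most like Ccdc88c (0.95). For Ctss the nearest was Cnpy3 (0.92) and for Ctsa Csnk1e (0.94). Among the members, Ctsa and Ctsc went together (0.87), and Ctsd and Cst3 ran opposite (-0.73).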

How the data were processed

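RNA and antibody UMIs of 2 WT spleen replicates were read from the authors' deposited matrix of raw counts, one column per cell barcode. The matrix came from Cell Ranger 3.1.0 per the file header, and STAR, Seurat 3.1.4 and build mm10 are named in the submitters' processing notes. The gene annotation used for counting and any equalising of depth between libraries are not given in the sources used here. The 2 libraries were told apart by the barcode suffix, and library numbers follow the suffix because no label ties a suffix to a replicate number.

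Cells needed at least 500 genes, 1000 RNA UMIs and under 10% mitochondrial UMIs. Scrublet in scanpy 1.11.5 called 546 and 1064 cells as doublets (4.30% and 6.24%), which were left out, and 12166 and 15976 cells remained, with a median of 6941.5 and 6884.5 RNA UMIs. DC classes also needed at least 2 CD11c and 20 MHC class II antibody UMIs and few markers of other cells. B, T and NK cells needed 3 of their markers, pDC and monocytes 5. Thinning drew 3000 UMIs per cell without replacement and left out shallower cells.

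UMIs of each class were added up within each library, and these sums were tested in edgeR 4.0.16 (R 4.3.3) by its quasi-likelihood test, with TMM scaling, its default expression filter, all classes in one fit and the library as a block, since all classes of a library come from the same cell suspension. The 89 genes used in gates were left out of tests, and p-values were adjusted by Benjamini-Hochberg over all genes tested. The procedure was also run on simulated counts. Every class was drawn from the immature cDC1 profile with a fixed spread and no library effect. That run therefore does not cover the differences between the real classes. Intervals for shares are exact binomial at 95% and cover counting error only. The alternatives were RLE scaling, library totals, no filter, DESeq2 1.42.0, no block, fewer classes in the fit, other gates, doublets kept, stricter cell filters, thinned cells and each library left out of each compared class. All 10 members are named, and from each list the 3 called genes with the largest changes. The 10 genes, the lists and the gates were chosen with earlier results of these data known. The genes most like Ctsc and Cst3 in pattern are not reported here.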

Additional observations from a re-analysis of the deposited data

Results flagged for a closer look

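The change with maturation differed between cDC1 and cDC2 for 4 of the 10 genes, by edgeR's test of the interaction, with the difference given as the log2 change in cDC1 minus that in cDC2. For Ctsd it was 2.52, on 16 and 29 UMIs in mature cDC1 and 6 and 11 UMIs in mature cDC2, with T and NK cell levels above both. For Lgmn it was 2.16, where the gene was higher in the mature class of both lineages. For Ctsz it was 1.28 and for Ctsb 0.89. In both of these the change in cDC1 was called under all 16 alternatives, and the change in cDC2 was 0.31 for Ctsz and -0.10 for Ctsb.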

How the results depend on the processing

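Of the tests of single genes under alternative settings, 1393 kept their side of the threshold, 58 newly passed and 39 no longer passed, and no called value changed sign, while some uncalled values crossed 0. All 10 pDC calls, the 4 calls on the difference between lineages and the calls on Lgmn, Ctsz, Ctsd, Ctsh and Ctsb in mature cDC1 held throughout, with Lgmn between 3.30 and 3.82 and Ctsz between 1.32 and 1.61. For cycling cDC1, 8 members were called when the fit held only the conventional DC classes, against 5. Between mature cDC1 and mature cDC2, 3 members were called with the maturity gate of 5 UMIs, against 6, and 3 to 6 with a library left out. In that comparison 1472 genes were called in all, 2314 with a gate of 1 UMI, 717 with a gate of 5, and 890 to 1162 with a library left out. For the difference between lineages 1016 genes were called, and 625 to 893 with a library left out. For monocytes 2967 genes were called, 1483 in thinned cells, 1691 to 2700 with a library left out, and 1214 without granule gene UMIs, an alternative chosen after seeing the data. For B cells 3427 genes were called and 1559 in thinned cells. The cause of these shifts was not tested, apart from the fewer cells or libraries that some settings hold by construction. Without the replicate block, the members called numbered 7 in mature cDC1, 4 in mature cDC2, 4 for the difference between lineages, 9 between immature classes, 6 between mature classes, 4 in cycling cDC1, 10 in pDC, 5 in monocytes and 5 in B cells. The calls lost without the block were Ctsz in mature cDC2 and Ctsb in cycling cDC1. Depth limits Ctsl, Ctsd and Ctsa most, at 3 to 29 UMIs per library in the mature classes.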
